A study of Ovis aries with 8 samples.

Results

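Collagen genes were examined in pancreatic islets of near-term fetal sheep. A collagen gene was a table row whose name is COL, digits, A and digits with nothing before or after, which gave 42 of 25000 rows and 0 duplicates. All 42 names match a sheep RefSeq symbol. Of these, 11 are fibrillar collagens, 8 are collagens of the basement membrane and 23 are other types. A row was tested when its mean over the 8 animals was at least 1 FPKM, a level corrected for transcript length and for the size of the library. That kept 25 collagen genes, 8 fibrillar, 5 of the basement membrane and 12 others, and left 17 with means from 0.0335 FPKM (COL19A1) to 0.916 FPKM (COL4A6). COL7A1 appears only in a row that merges it with another name and was not counted.

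Collagens are secreted proteins built of chains wound into a helix, and they form most of the fibrous scaffold of a tissue. Fibrillar collagens assemble into the cable-like fibrils of interstitial connective tissue and are mainly made by mesenchymal cells such as fibroblasts, stellate cells and pericytes. Collagen IV forms the sheet-like network of basement membranes, which in the pancreas surround islet capillaries, ducts and acini, and it is made by endothelial as well as mesenchymal cells. Endocrine cells themselves are known to contribute little of either.

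The animals were singleton fetuses of Columbia-Rambouillet ewes. The 4 norepinephrine fetuses received the catecholamine intravenously for 7 days, at 1 µg/min on day 1, 2 µg/min on days 2 to 4 and 4 µg/min on days 5 to 7, and were 137 to 139 days of gestation. The 4 control fetuses received the vehicle, saline (0.9%) that held ascorbic acid (0.3%), and were 139 to 140 days of gestation. Each group held 1 female, control 2 and norepinephrine 3. Animal numbers begin with 09 for control 2 and norepinephrine 1, 3 and 4, and with 10 for controls 1, 3 and 4 and norepinephrine 2. No label says what the leading digits stand for, and the sets are called number groups below. Treatment and number group were therefore unbalanced, 3 against 1 within 09 and 1 against 3 within 10.

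Markers were read in the tissue labelled as islets: all 13 endocrine marker genes of the table passed the filter, and chromogranin A (CHGA) stood at 3891 ± 1555 FPKM (SD, n = 4) in controls. Passing the filter does not set islets apart, since 12 of 12 endothelial, 12 of 13 mesenchymal and 8 of 11 acinar markers passed too. Mesenchymal markers were present too: vimentin (VIM) was at 1815 ± 432 FPKM (SD, n = 4) and the pericyte receptor PDGFRB at 50.7 ± 18.2 FPKM (SD, n = 4) in controls. The endocrine markers INS, NEUROD1 and PPY, the mesenchymal markers PDGFRA, ACTA2, LRAT and NKX3-2, and the endothelial markers PECAM1 and CLDN5 were not analysed here. The libraries are of whole islets, so fewer cells of a type and less RNA per cell cannot be told apart. FPKM summed over all rows ran from 768021 to 796149 in animals numbered 10 and from 981583 to 1112624 in those numbered 09. Differences below carry that split unless equal totals are stated. The depth of the libraries is unknown in absolute terms. The steps between low FPKM values put norepinephrine 1 and 3 at 0.647 and 0.726 of the depth of control 1, and the others that could be placed at 1.01 to 1.17 times that depth. No such value could be had for control 2 and norepinephrine 4. Low collagens were accordingly measured with fewer fragments in norepinephrine 1 and 3 than in control 1.

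Type IV and the major fibrillar chains made up most of the collagen signal. COL4A1 was the most abundant collagen in each of the 8 animals, with a mean level of 271 FPKM. It was followed by its partner chain COL4A2 at 142 FPKM, the type I chains COL1A1 at 136 and COL1A2 at 121 FPKM, and the type III chain COL3A1 at 106 FPKM. The type VI chains COL6A2 and COL6A1, at 72.1 and 70.0 FPKM, came next. Single animals ran from 100.9 to 211 FPKM for COL4A2 and from 40.8 to 412 FPKM for COL1A1. The order of COL4A2, COL1A1 and COL1A2 was not the same in every animal. They were at 211, 412 and 325 FPKM in norepinephrine 4 and at 110.4, 40.8 and 44.7 FPKM in norepinephrine 2. Differences between these chains within animals were not tested. Several chains that are typical of cartilage or of kidney and skin stood below the filter, among them COL2A1 at a mean of 0.149 FPKM, COL10A1 at 0.130 FPKM, COL4A3 at 0.0926 FPKM and COL17A1 at 0.654 FPKM. Other chains known from cartilage passed it, among them COL27A1 at 13.4 FPKM and COL9A1 at 1.12 FPKM.

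**Figure D1:**
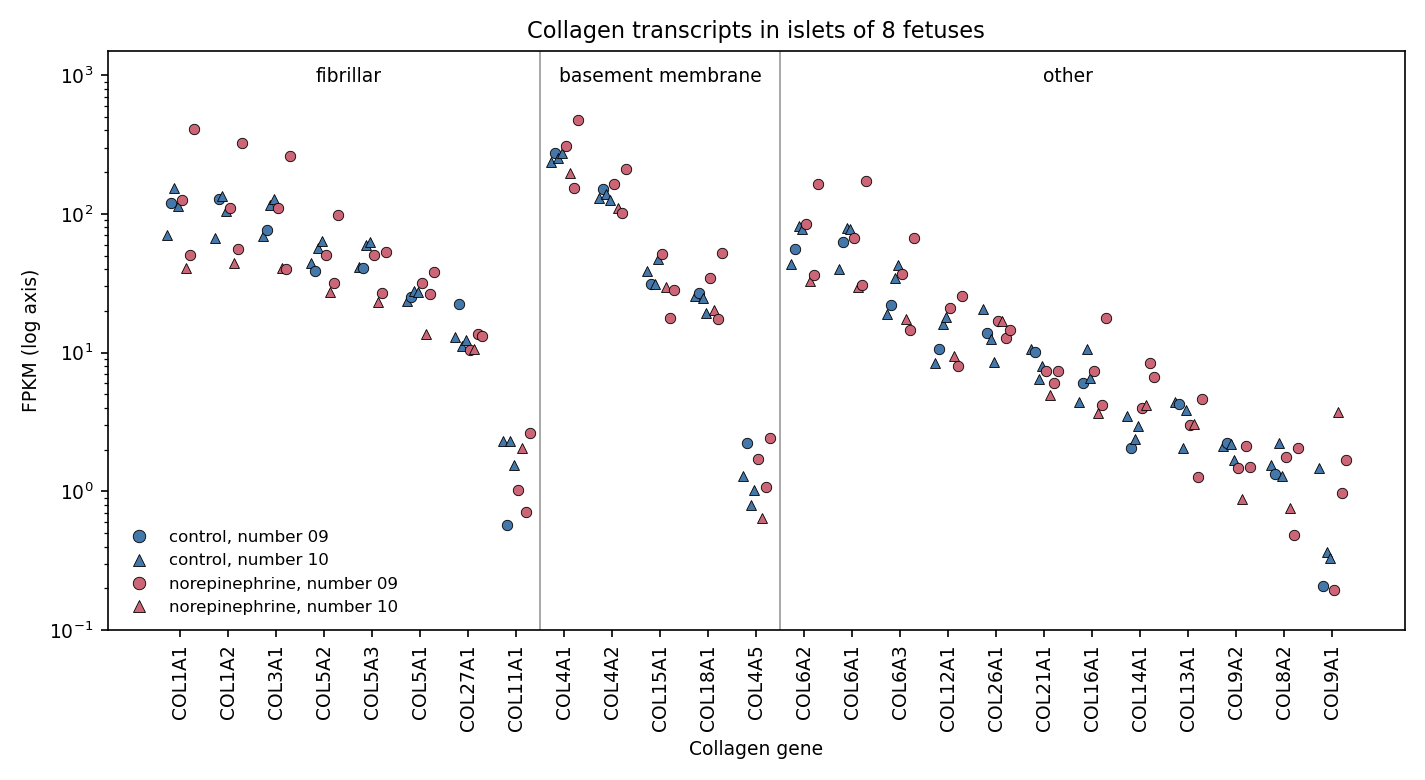
FPKM (log axis) of the 25 tested collagen genes, 1 point per animal, coloured by treatment and shaped by number group, in the order of their mean within each class. COL4A1 leads, and the 4 norepinephrine points spread more widely than the 4 control points for most abundant chains.

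All collagen rows together summed to 929, 1133, 1264 and 1235 FPKM in controls 1 to 4. In norepinephrine 1 to 4 the sums were 1307, 691, 666 and 2467 FPKM. The norepinephrine animals thus held the lowest 2 sums and the highest 2 sums, with the controls in between. The group means were 1283 ± 843 FPKM with norepinephrine and 1140 ± 152 FPKM in controls (SD, n = 4 each). As a share of all FPKM, collagen was 0.129% ± 0.0723 with norepinephrine and 0.134% ± 0.0275 in controls (SD, n = 4 each), and ranged from 0.0655% in norepinephrine 3 to 0.229% in norepinephrine 4.

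The 3 classes did not vary to the same extent. Summed fibrillar FPKM ranged 5.93-fold over the 8 animals, from 203 in norepinephrine 2 to 1206 in norepinephrine 4. Summed basement membrane FPKM ranged 2.65-fold, from 291 in norepinephrine 3 to 773 in norepinephrine 4, and the other collagens ranged 3.81-fold. Among controls the basement membrane sum was especially even, at 435, 488, 448 and 469 FPKM. The fibrillar share of collagen FPKM was accordingly lowest in norepinephrine 2, at 29.4%, and highest in norepinephrine 4, at 48.9%, with controls from 35.7% to 44.6%. The share of the basement membrane class had the opposite extremes, 31.3% in norepinephrine 4 and 51.8% in norepinephrine 2. The share of the other types stayed between 16.9% and 20.4%.

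**Figure D2:**
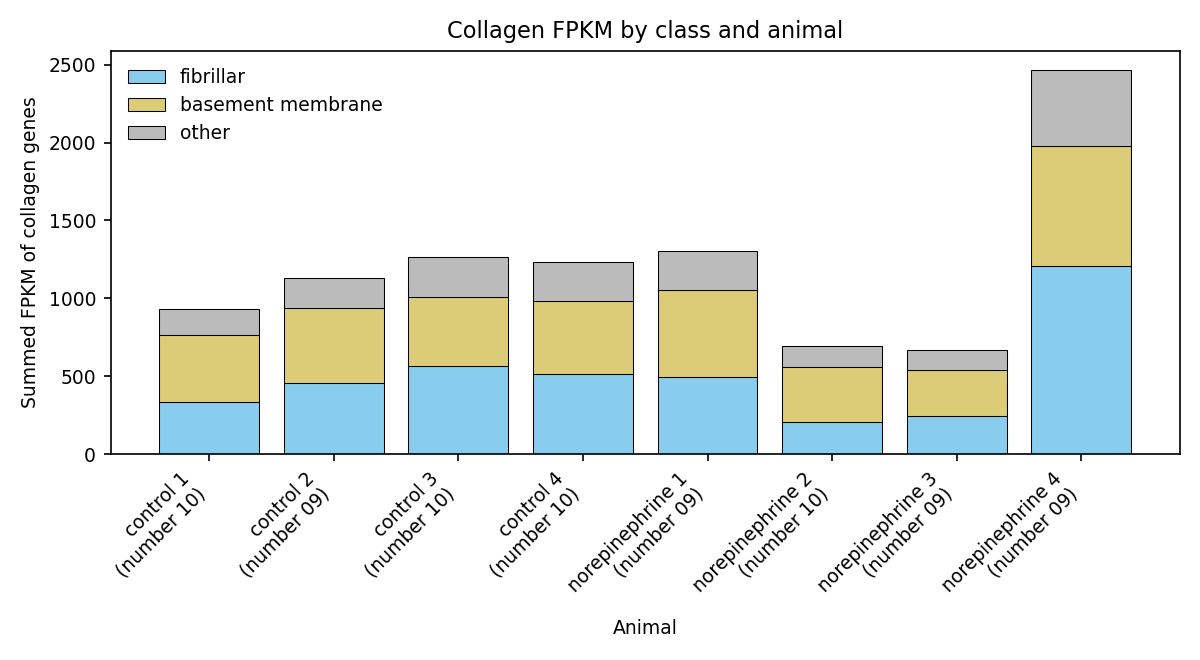
Summed FPKM of all 42 collagen genes in each animal, stacked by class, with the number group under each name. Norepinephrine 4 reaches 2467 FPKM and norepinephrine 2 and 3 lie at 691 and 666 FPKM, against 929 to 1264 FPKM in the controls, and the fibrillar portion varies most.

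The main comparison asked whether a week of norepinephrine altered collagen transcripts. No collagen gene passed the test: 0 of 25 reached an adjusted p of 0.05 in limma on log2(FPKM + 1), beside 0% of the 13252 genes tested, with 0.210 as the lowest value. With no adjustment, 1 collagen was under 0.05 in the higher direction (COL14A1) and 0 in the lower, beside 3.61% and 3.74% of all genes. The looser rule took 7.36% of all genes in either direction, so 1 of 25 is no more than that background. By sign alone, 10 collagens were higher and 15 lower with norepinephrine, with a median log2 difference of -0.05 beside 0.017 for all tested genes. When the libraries were scaled to equal totals, which shifts the median of all genes to -0.12, the split was 5 higher and 20 lower. Single animals set the split too: 17 of 25 were higher without norepinephrine 2, 17 without norepinephrine 3 and 3 without norepinephrine 4. With gestational age in the model, the class medians were -0.995 for fibrillar, -0.69 for basement membrane and -0.74 for other collagens, beside -0.044 for all genes. In that model 0 of 25 were past limma's adjusted threshold. At an unadjusted p under 0.05, 11 of 25 were lower, beside 5.34% of all genes, and 1 was higher. Only at 139 days did the groups share an age. Controls were at 139 and 140 days only, so the age slope came mainly from the norepinephrine animals. With norepinephrine, COL1A1 was at 412 FPKM at 137 days, 127 at 138 days, and 40.8 and 50.4 at 139 days. In controls it was at 119 FPKM at 139 days and at 70.0, 155 and 114 FPKM at 140 days. The age-adjusted values therefore carry the spread among norepinephrine animals into the group difference.

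The 8 tested fibrillar collagens had a negative sign, with a median log2 difference of -0.12 beside standard errors from 0.22 to 0.64. Without norepinephrine 2 or without norepinephrine 3, 5 of 8 were higher, with medians of 0.14 and 0.090, and without control 3, 4 of 8 were higher. COL1A1 encodes the main chain of type I collagen and COL1A2 its partner. COL1A1 (chromosome 11 of the sheep build Oar_v3.1, as all positions here, 35993829 to 36010034) was at 70.0, 119, 155 and 114 FPKM in controls 1 to 4, and at 127, 40.8, 50.4 and 412 FPKM in norepinephrine 1 to 4. The control range lay inside the norepinephrine range, and the highest and lowest animals, 10.1-fold apart, had both received norepinephrine. The log2 difference was -0.11 (SE 0.64, limma adjusted p = 0.972). It was -0.78 without norepinephrine 4 and 0.33 without norepinephrine 2, so single animals set its sign. With gestational age in the model it was -2.01 (limma adjusted p = 0.495).

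COL1A2 (chromosome 4, 11656770 to 11692712) followed the same order of animals at the extremes. It was at 67.1, 128, 135 and 104 FPKM in controls and at 111, 44.7, 56.3 and 325 FPKM with norepinephrine, differing by -0.10 on the log2 scale (SE 0.55, limma adjusted p = 0.970). COL3A1 (chromosome 2, 119229422 to 119270385), the type III chain that co-assembles with type I in soft tissues, was at 69.5, 77.0, 116 and 128 FPKM in controls and at 111, 40.7, 39.9 and 263 FPKM with norepinephrine. Its log2 difference was -0.18 (SE 0.55, limma adjusted p = 0.944). With gestational age in the model the log2 differences were -1.77 for COL1A2 and -1.64 for COL3A1, with limma adjusted p-values of 0.495 and 0.580. For these 3 chains norepinephrine 4 was above every control and norepinephrine 2 and 3 were below every control, and the norepinephrine range enclosed the control range.

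The minor fibrillar collagens nucleate fibrils or limit their width. COL5A3 (chromosome 5, 12222994 to 12268229), a type V chain, had the lowest unadjusted p of the class. It stood at 41.6, 41.1, 59.6 and 63.2 FPKM in controls and at 50.4, 23.1, 26.9 and 52.9 FPKM with norepinephrine, differing by -0.48 on the log2 scale (SE 0.29, limma adjusted p = 0.737). The other type V chains were flatter, with log2 differences of -0.12 for COL5A2 and -0.01 for COL5A1. The locus given for COL5A1 is shared with 42 other rows, so its level is uncertain. COL27A1 (chromosome 2, 9374621 to 9516130), a fibrillar chain best known from cartilage, was at 12.9, 22.6, 11.2 and 12.4 FPKM in controls and at 10.4, 10.7, 13.5 and 13.2 FPKM with norepinephrine. Its log2 difference of -0.24 (SE 0.22, limma adjusted p = 0.798) rested on control 2, and was -0.03 without that animal. COL11A1 was low, from 0.577 to 2.63 FPKM, with a log2 difference of -0.05.

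Basement membrane collagens were split by sign, 3 higher and 2 lower, with a median log2 difference of 0.04 that turned to -0.11 with equal totals. COL4A1 (chromosome 10, 84218174 to 84267989) was at 239, 273, 251 and 275 FPKM in controls, a standard deviation of 0.10 on the log2 scale. With norepinephrine it was at 307, 196, 153 and 477 FPKM, a standard deviation of 0.72. Every norepinephrine animal thus lay outside the control range, norepinephrine 1 and 4 above it and norepinephrine 2 and 3 below, and the log2 difference was -0.01 (SE 0.31, limma adjusted p = 0.995). COL4A2 (chromosome 10, 84344246 to 84506524) was at 130.0, 152, 139.6 and 126 FPKM in controls and at 166, 110.4, 100.9 and 211 FPKM with norepinephrine. It showed the same arrangement of animals around the controls, and differed by 0.04 on the log2 scale (SE 0.23, limma adjusted p = 0.969), or by -0.11 with equal totals.

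The multiplexins COL15A1 and COL18A1 are basement membrane collagens that carry heparan or chondroitin sulfate chains, and the tail of COL18A1 is the precursor of endostatin. COL15A1 (chromosome 2, 48487007 to 48588324) was at 38.5, 31.2, 31.1 and 47.6 FPKM in controls and at 51.2, 29.8, 17.9 and 28.2 FPKM with norepinephrine. COL18A1 (chromosome 1, 263365064 to 263422969) was at 25.8, 27.1, 24.9 and 19.4 FPKM in controls and at 34.5, 20.3, 17.6 and 52.1 FPKM with norepinephrine. Norepinephrine 4 was thus the highest animal for COL18A1 but below the control mean for COL15A1. Their log2 differences were -0.29 (SE 0.28, limma adjusted p = 0.812) for COL15A1 and 0.23 (SE 0.31, limma adjusted p = 0.870) for COL18A1. Of the minor type IV chains only COL4A5 was tested, at 1.33 ± 0.632 FPKM in controls and 1.46 ± 0.771 FPKM with norepinephrine (SD, n = 4 each).

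Among the other types, 7 were higher and 5 lower, with a median log2 difference of 0.02 that turned to -0.13 with equal totals. The type VI chains form beaded filaments around cells. COL6A2 was at 43.4, 55.5, 82.1 and 78.2 FPKM in controls and at 84.8, 32.6, 36.2 and 164 FPKM with norepinephrine. COL6A1 was at 40.1, 62.4, 79.5 and 77.6 FPKM in controls and at 67.3, 30.0, 30.8 and 172 FPKM with norepinephrine. COL6A3 was at 19.1, 22.0, 34.5 and 42.9 FPKM in controls and at 36.7, 17.5, 14.6 and 67.4 FPKM with norepinephrine. All of these chains placed norepinephrine 4 highest and norepinephrine 2 and 3 lowest, as the type I chains did. Their log2 differences of 0.03, -0.12 and 0.01 had standard errors of 0.48, 0.51 and 0.46, with limma adjusted p-values of 0.991, 0.963 and 0.995. Those of COL6A2 and COL6A3 turned to -0.13 and -0.14 with equal totals.

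COL14A1 (chromosome 9, 93989138 to 94176815) had another order of animals. It encodes undulin, which lies on the surface of collagen fibrils as a FACIT, a fibril-associated collagen with an interrupted helix. It was at 3.47, 2.06, 2.38 and 2.98 FPKM in controls, and at 3.99, 4.22, 8.48 and 6.72 FPKM with norepinephrine. All 4 norepinephrine animals were above all 4 controls, which held for 1.88% of all genes. It was the 1 collagen of 25 whose groups did not overlap in either direction, beside 4.23% of all genes. The means were 5.85 ± 2.14 FPKM with norepinephrine and 2.72 ± 0.629 FPKM in controls (SD, n = 4 each). The log2 difference was 0.84 (SE 0.24), and limma's adjusted p of 0.523 left it short of the threshold. Without overlap its difference had to be positive within both number groups, and it was 1.22 within 09 and 0.41 within 10. Compared with the type I chains, norepinephrine 3 had the most COL14A1 and little COL1A1, and the ratio of COL14A1 to COL1A1 was 0.168 there and 0.0163 in norepinephrine 4.

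COL21A1 (chromosome 20, 4215443 to 4381408), another FACIT, had the next lowest unadjusted p. It was at 10.6, 10.1, 6.51 and 8.06 FPKM in controls and at 7.32, 4.99, 6.05 and 7.42 FPKM with norepinephrine, differing by -0.39 on the log2 scale (SE 0.19, limma adjusted p = 0.681). The groups overlapped through control 3. The remaining FACITs were COL12A1 with a log2 difference of 0.15, COL16A1 with 0.05, COL9A2 with -0.31 and COL9A1 with 0.61. COL9A1, a partner of cartilage type II fibrils, ranged from 0.195 FPKM in norepinephrine 1 to 3.72 FPKM in norepinephrine 2. Its mean was 0.597 FPKM in controls and 1.64 FPKM with norepinephrine. It thus passed the filter only through the group where it was higher, and its positive difference carries that selection. COL26A1 had a log2 difference of 0.18, the short-chain network collagen COL8A2 -0.26 and the transmembrane collagen COL13A1 -0.25, none past the threshold.

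**Figure D3:**
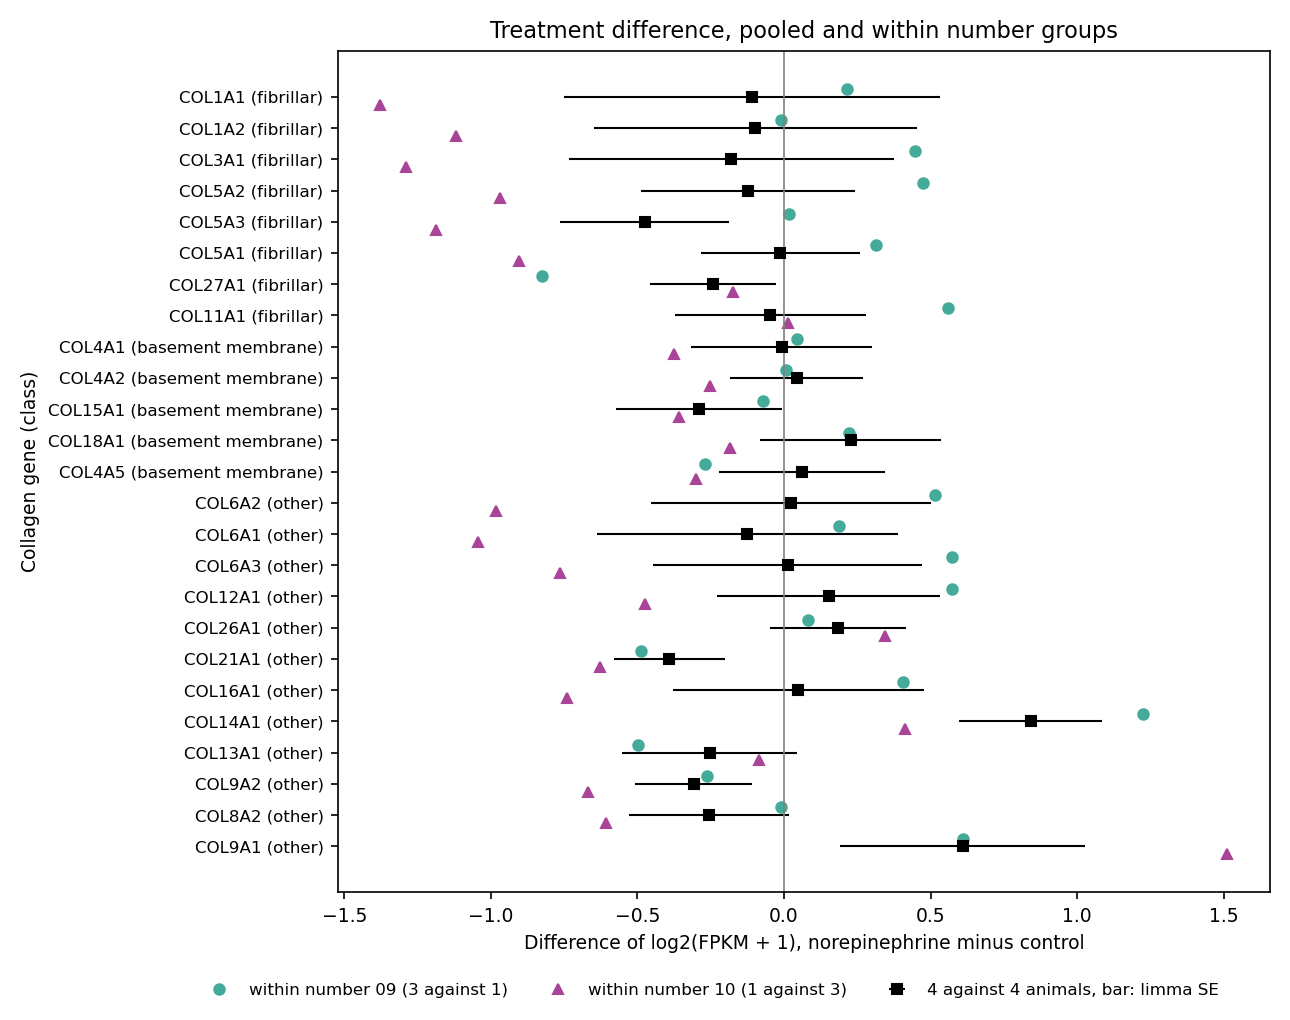
Difference of log2(FPKM + 1), norepinephrine minus control, for the 25 tested collagens: squares with limma standard errors over 4 against 4 animals, circles within number group 09 and triangles within number group 10. COL14A1 lies farthest to the right of the squares at 0.84, and for the type I, III, V and VI chains the triangles lie well to the left of the circles.

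Within the number groups the norepinephrine difference took different values. Within 09, where norepinephrine 1, 3 and 4 were set against control 2, 17 collagens were higher and 8 lower. The class medians there were 0.26 for fibrillar, 0.0056 for basement membrane and 0.30 for other collagens, beside -0.036 for all genes. Within 10, where norepinephrine 2 was set against controls 1, 3 and 4, 4 were higher and 21 lower. The medians were -1.04, -0.30 and -0.62, beside 0.0024 for all genes. A positive sign within 09 with a negative sign within 10 was shown by 13 of 25 collagens and by 19.6% of all genes. Both signs were negative for 8 of 25, beside 29.6% of all genes, and both positive for 4 of 25, beside 25.9%. The 4 were COL14A1, COL9A1, COL11A1 and COL26A1. COL14A1 was bound to be among them, since its groups did not overlap. COL9A1 passed the filter only through the norepinephrine animals. COL1A1 was at 0.21 and -1.38, COL3A1 at 0.45 and -1.29, and COL6A2 at 0.51 and -0.98. Each lone animal enters every one of these differences, so the collagens are not separate evidence of them. With number group as a term over all 8 animals, the class medians were -0.46, -0.17 and -0.20.

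The difference between the number groups in the norepinephrine effect was tested as an interaction in limma, which has to assume that each lone animal varies like the others. It was past the threshold for 0 of 25 collagens and 0.121% of all genes, and the lowest adjusted p of a collagen was 0.848. At an unadjusted p under 0.05 it held for COL5A1 alone, with a log2 value of -1.22 (SE 0.31), beside 5.61% of all genes. By sign, 21 of 25 collagens were more negative within 10, with a median of -0.59 beside 0.052 for all tested genes. The share of all genes with that sign was not counted, and the same lone animals enter every collagen. Norepinephrine 2 alone carried the comparison within 10. It lay below all 3 controls of its number group for 18 of 25 collagens and for 29.9% of all genes.

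Animals numbered 10 were compared with those numbered 09 with treatment in the model. No collagen passed limma's adjusted threshold, 0 of 25, although 16.5% of all genes did (0.136% without control 2, the lone control numbered 09). The median log2 difference, 10 minus 09, was -0.31 with 21 of 25 lower, beside -0.088 for all genes. With equal totals the median of all genes moved to 0.31, and that of the collagens to 0.12 with 15 of 25 higher, so the direction rests on the scaling. The chains nearest to the threshold were COL4A5 at -0.69 (limma adjusted p = 0.0775) and COL27A1 at -0.52 (limma adjusted p = 0.0805). These were the 2 of 25 under an unadjusted p of 0.05, both lower, beside 34.6% of all genes in either direction and 20.9% in that direction.

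The norepinephrine animals were spread more widely than the controls. The standard deviation of log2(FPKM + 1) was larger with norepinephrine for 22 of 25 collagens, beside 52.6% of all genes. The median standard deviation was 0.62 with norepinephrine and 0.38 in controls, against 0.272 and 0.262 over all genes. Norepinephrine 4 was the highest of the 8 animals for 16 of 25 collagens, beside 21.6% of all genes. Norepinephrine 2 or 3 was the lowest for 20 of 25, beside 24.9% of all genes: norepinephrine 2 for 11 of 25 (15% of all genes) and norepinephrine 3 for 9 of 25 (9.95%). Leaving out norepinephrine 4 still left 19 of 25 collagens with the larger standard deviation in the norepinephrine group, beside 44.8% of all genes. These counts are descriptions with no test, since the collagens of an animal share its islets and its library. Other matrix genes shared the order of animals. Summed FPKM of fibril partners listed below was 606, 611 and 1964 in norepinephrine 2, 3 and 4, against 796 to 1044 in controls. That of further basement membrane genes was 517, 592 and 1401, against 637 to 889. For genes of collagen synthesis and secretion, norepinephrine 2 and 3 lay within the control range. Norepinephrine 4 was also the youngest fetus, at 137 days, and its depth is unknown; the part of either in its collagen levels was not tested.

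The ratios of chains that are known to form shared proteins ranged less than their levels. COL1A1 and COL1A2, which assemble into type I collagen, had a ratio of 1.06 ± 0.091 in controls and 1.06 ± 0.182 with norepinephrine (SD, n = 4 each). Their log2 values were correlated across the 8 animals, with Pearson's r = 0.995 (exact permutation p = 0.000149, adjusted over 7 pairs 0.00104) and Spearman's rho = 0.976 (exact permutation p = 0.000397, adjusted 0.00278). Without norepinephrine 2 and 4, the animals farthest from the median, r was 0.977. COL4A1 and COL4A2 are neighbours on chromosome 10, 76256 bases apart in the file, and had ratios from 1.52 to 2.26. Their r was 0.961 (exact permutation p = 0.000595, adjusted 0.00113) and rho 0.857 (exact permutation p = 0.0107, adjusted 0.0179). It was 0.865 without norepinephrine 3 and 4. COL6A1 and COL6A2, 130685 bases apart on chromosome 1, had ratios from 0.794 to 1.12 and an r of 0.983 (exact permutation p = 0.000446, adjusted 0.00113), with rho 0.929 (exact permutation p = 0.00223, adjusted 0.00521). Without norepinephrine 2 and 4 it was 0.948.

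Chains of different proteins were correlated as well. COL1A1 with COL3A1 had an r of 0.963 (exact permutation p = 0.00139, adjusted 0.00194) and a rho of 0.833 (exact permutation p = 0.0154, adjusted 0.0179). COL1A1 with COL6A1 had an r of 0.988 (exact permutation p = 0.000645, adjusted 0.00113) and a rho of 0.929 (exact permutation p = 0.00223, adjusted 0.00521). Without norepinephrine 2 and 4 these r values were 0.894 and 0.968. The fibrillar chain COL1A1 and the basement membrane chain COL4A1 had an r of 0.922 (exact permutation p = 0.00506, adjusted 0.00590) and a rho of 0.810 (exact permutation p = 0.0218, adjusted 0.0218). That r was 0.834 without norepinephrine 2 and 4, but the ratio of COL1A1 to COL4A1 still moved from 0.208 in norepinephrine 2 to 0.865 in norepinephrine 4. All animals of both treatments enter these values, and a library shared by all genes of an animal enters each pair. The number groups hold 4 animals each, too few for a correlation within them.

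**Figure D4:**
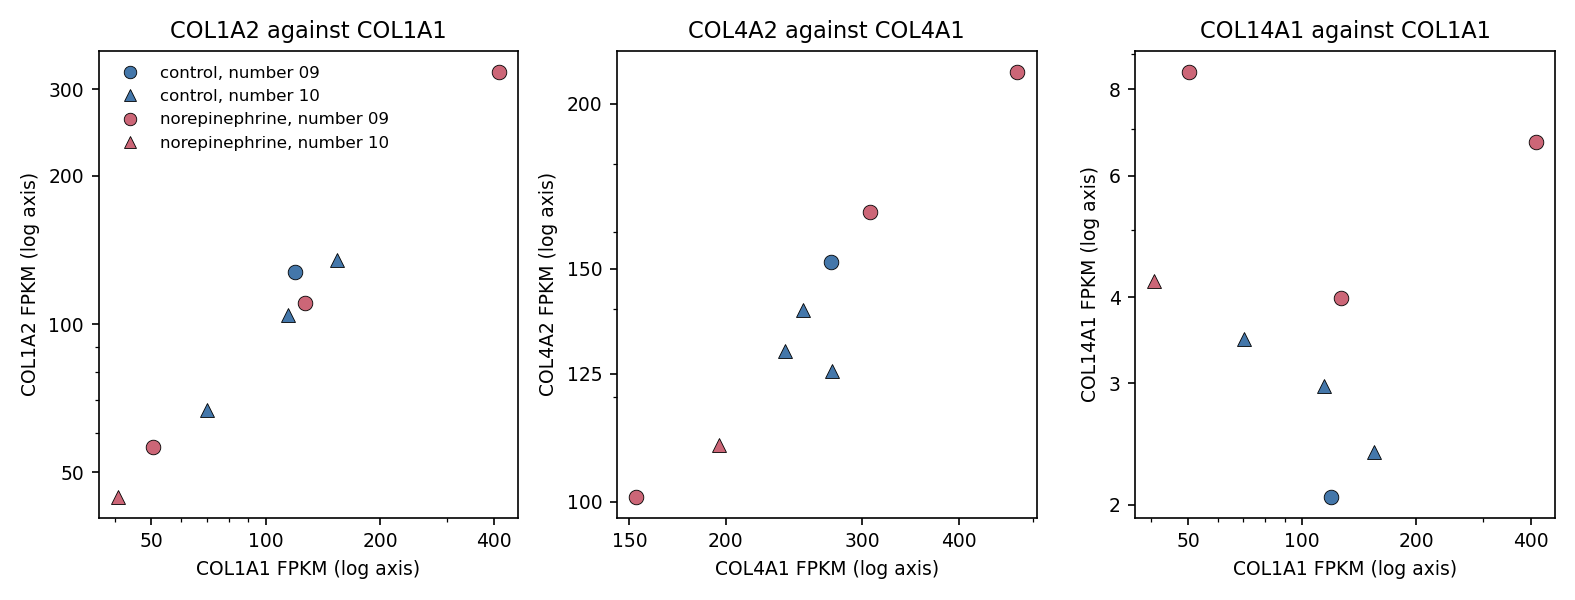
FPKM of 1 chain against another (log axes) in the 8 animals, coloured by treatment and shaped by number group. The animals lie close to a line for COL1A2 against COL1A1 and for COL4A2 against COL4A1, with norepinephrine 4 at the upper end of both, whereas COL14A1 against COL1A1 has norepinephrine 3 at the upper left and norepinephrine 4 at the upper right.

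Genes that act with collagens were described from lists of their roles, and none of their members passed limma's adjusted threshold for norepinephrine. Of 21 genes of collagen synthesis and secretion, 15 were higher and 6 lower with norepinephrine, with a median log2 difference of 0.081; with equal totals the split was 7 and 14. The list includes the prolyl hydroxylase subunit P4HB, at 1445 ± 312 FPKM with norepinephrine and 1112 ± 363 FPKM in controls (SD, n = 4 each). PPIB, the endoplasmic reticulum cyclophilin that aids folding, was at 1412 ± 447 and 1149.8 ± 502 FPKM. Between the number groups, 7 of 21 were lower in animals numbered 10 at limma's adjusted threshold, beside 10.4% of all genes. The 7 were P4HA2, P4HB, PLOD1, LEPRE1, LEPREL2, PPIB and KDELR2, with limma adjusted p-values of 0.0103 to 0.0323. With equal totals 4 of 21 were lower and 1 was higher, beside 1.79% and 31.0% of all genes.

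Of 12 genes that process propeptides or crosslink chains, 7 were higher and 5 lower, with a median of 0.085 (5 and 7 with equal totals). The procollagen C-proteinase BMP1 was at 57.2 ± 22.8 FPKM with norepinephrine and 57.9 ± 11.8 FPKM in controls (SD, n = 4 each). Peroxidasin (PXDN), which crosslinks collagen IV, was at 92.4 ± 22.3 and 76.2 ± 18.7 FPKM. TLL2 was at 0.758 ± 0.140 and 1.42 ± 0.478 FPKM, with no overlap (limma adjusted p = 0.670), as for 2.35% of all genes in that direction. It passed the filter only through the controls. LOX, at 1.74 ± 1.54 and 0.900 ± 0.230 FPKM, passed only through the norepinephrine animals. The signs of these genes carry that selection. Of 12 genes for breakdown and its inhibitors, 7 were higher and 5 lower, with a median of 0.12 (also 5 and 7 with equal totals). TIMP1, an inhibitor of collagenases, was at 423 ± 351 FPKM with norepinephrine and 215 ± 48.2 FPKM in controls, and the collagen-degrading protease CTSK at 166 ± 82.9 and 99.1 ± 45.1 FPKM. All 5 tested collagen receptors were lower in sign, with a median of -0.067; the integrin subunit ITGB1 was at 405 ± 16.6 and 425 ± 28.5 FPKM, and the discoidin receptor DDR1 at 81.0 ± 18.5 and 83.3 ± 11.7 FPKM.

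The non-collagen matrix was divided by sign, although its sums were highest in norepinephrine 4 and lowest in norepinephrine 2 and 3. Of 14 further basement membrane genes, 7 were higher and 7 lower, with a median of 0.0027 (3 and 11 with equal totals), and the laminin chain LAMB1 was at 112 ± 14.6 FPKM with norepinephrine and 107 ± 2.76 FPKM in controls (SD, n = 4 each). Of 20 partners of collagen fibrils, 10 were higher and 10 lower (6 and 14 with equal totals). The fibril-spacing proteoglycan LUM was at 195 ± 160.0 and 139 ± 37.1 FPKM. In this list 3 genes were lower at an unadjusted p under 0.05, beside 3.74% of all genes in that direction: EMILIN1, FBN2 and VCAN. The elastic fibre glycoprotein EMILIN1 was at 63.5 ± 17.9 FPKM with norepinephrine and 91.8 ± 3.11 FPKM in controls, with no overlap (limma adjusted p = 0.574). FBN2 did not overlap either, at 4.23 ± 1.26 and 6.75 ± 1.08 FPKM (limma adjusted p = 0.593). Its nearest animals of the groups were at 5.69 and 5.70 FPKM. Such a gap in that direction held for 2.35% of all genes.

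Markers of other cell types moved alongside some of these values. The 12 tested mesenchymal markers were divided 6 higher and 6 lower, with a median log2 difference of 0.034 (5 and 7 with equal totals), and the FPKM sum of the list ran from 1744 to 2726 in controls and from 1209 to 2410 with norepinephrine. PDGFRB followed COL1A1 across the animals, with r = 0.868 (exact permutation p = 0.00709, adjusted 0.00709) and rho = 0.833 (exact permutation p = 0.0154, adjusted 0.0179), and r = 0.865 without norepinephrine 2 and 4. It was at 117 FPKM in norepinephrine 4, 15.7 FPKM in norepinephrine 3 and 32.0 FPKM in norepinephrine 2, against 34.9 to 70.8 FPKM in controls. Other markers of the list had other orders: desmin (DES) was at 131 FPKM in norepinephrine 3 and 73.4 FPKM in norepinephrine 4, against 69.5 to 114 FPKM in controls. TAGLN, MYL9 and CNN1, genes of contractile cells, were above every control in both of these animals. TAGLN was at 42.2 and 117 FPKM there and at 46.9 FPKM in norepinephrine 1, against 15.0 to 35.3 FPKM in controls. RGS5 and CSPG4 of the same list were lowest of all animals in norepinephrine 3, at 0.531 and 0.663 FPKM. Of 12 endothelial markers, 3 were higher and 9 lower, with a median of -0.19 (0 and 12 with equal totals) and sums of 287 to 383 FPKM in controls and 206 to 468 FPKM with norepinephrine. All 8 tested acinar markers were higher in sign with norepinephrine, with a median of 1.37 and sums of 118 to 158 FPKM in controls and 133 to 968 FPKM with norepinephrine. The acinar median was 1.61 within number group 09 and -0.56 within 10, where norepinephrine 2 had the sum of 133 FPKM. The highest acinar sum was in norepinephrine 3, which had the lowest collagen sum. Norepinephrine 1 and 4 had acinar sums of 588 and 372 FPKM and the highest collagen sums, 1307 and 2467 FPKM. Norepinephrine 2 had the next lowest collagen sum, 691 FPKM. Of 4 duct markers, 3 were higher and 1 lower, with a median of 0.53 and sums of 103 to 192 FPKM in controls and 163 to 432 FPKM with norepinephrine. Of 13 endocrine markers, 12 were higher and 1 lower, with a median of 0.29 and sums of 8262 to 14054 FPKM in controls and 11064 to 17088 FPKM with norepinephrine. With equal totals these splits were 2 and 2, and 11 and 2. At an unadjusted p under 0.05 in limma, 3 of 8 acinar, 2 of 4 duct and 1 of 13 endocrine markers were higher. So were 0 of 12 mesenchymal and 0 of 12 endothelial markers, beside 3.61% of all genes in that direction. None of the markers of these 5 lists was at 0 in every animal, and their part in the collagen values was not tested.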

How the data were processed

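RNA of hand-picked islets was sequenced from 4 norepinephrine and 4 control fetuses, with mRNA selected and both ends read over 100 bp, per the labels' protocols. Replicates are separate animals. The deposited table gives FPKM (fragments per kilobase of transcript and library size) per gene and animal, per the file headers. Counts were not used here, so no count test was run and no counting interval computed. The submitters' processing notes name Cuffdiff, Cufflinks 2.1.1, TopHat2 2.0.1 and, as the genome, Oar_v3.1. The annotation, filters and strand setting were not given in the sources used here. Gene positions come from the table, on that build, with starts raised by 1.

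Values were analysed as log2(FPKM + 1), which understates changes of low genes. The 13252 rows with a mean of at least 1 FPKM were fitted with limma 3.58.1 in R 4.3.3 (lmFit, eBayes with trend), two-sided, with Benjamini-Hochberg adjustment over all of them and a threshold of 0.05. The scripts were tested on simulated data. The number-group and interaction models add the leading digits of the animal number. Correlations used exact two-sided permutations (scipy 1.17.1), adjusted over 7 pairs. An 8th planned pair, with PECAM1, could not be formed. The collagens, lists and tests were chosen with earlier results of these data known. Values by animal are given for the 3 most abundant members of each class and the 2 with the lowest unadjusted p, and of each list the 2 most abundant genes and the 1 with the lowest p could be named. PDGFRB came from the pairs. COL5A1, COL4A5, COL9A1, FBN2, VCAN, LOX, TAGLN, CNN1, RGS5, CSPG4 and the genes called between number groups were singled out after their values were seen. Alternatives were another pseudocount, other filters, equal totals, equal upper quartiles, no variance trend, covariates, a replicate block and leaving out each animal.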

Additional observations from a re-analysis of the deposited data

Results flagged for a closer look

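In groups of 4 animals, a value stood apart when its gap to the nearest other animal exceeded the 95% critical value of Dixon's ratio. Of 50 groups examined (25 collagens, 2 treatments) 2 held such an animal, and chance flags about 1 in 20. COL27A1 was at 22.6 FPKM in control 2, a gap of 0.852 of the range above the other controls. COL9A1 was at 1.48 FPKM in control 1, a gap of 0.874 of the range, where the other controls lay from 0.208 to 0.369 FPKM.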

How the results depend on the processing

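The count of collagens past the threshold for norepinephrine was 0 in each of the 17 alternatives, and 0 for the interaction in each of the 5 run. Gestational age as a covariate moved the class medians to -0.995 (fibrillar), -0.69 (basement membrane) and -0.74 (other), with 1 collagen higher and 11 lower at an unadjusted p under 0.05, beside 341 higher and 707 lower of all 13252 genes. The age slope in that model came mainly from the norepinephrine animals. Between number groups, 1 of 25 collagens passed with equal totals (COL11A1), beside 32.8% of all genes, and 0 to 1 passed when an animal was left out: COL27A1 without norepinephrine 1 (17.2% of all genes), COL4A5 without norepinephrine 3 (13.7%) and COL11A1 without norepinephrine 4 (16.9%). Leaving out an animal moved the class medians from -0.57 to 0.14 (fibrillar), -0.15 to 0.20 (basement membrane) and -0.38 to 0.26 (other, lowest without norepinephrine 4). The count of collagens with a larger standard deviation with norepinephrine ran from 19 to 22, an alternative chosen after seeing the data. Of 14 collagens given by animal, 9 changed sign in at least 1 setting, 36 of 237 settings in all. With equal totals the log2 difference was -0.11 for COL4A2, -0.13 for COL6A2 and -0.14 for COL6A3, and with equal upper quartiles -0.0049 for COL6A3. With number group as a covariate it was -0.12, -0.23 and -0.096 for the same chains in that order. With gestational age it was -0.62 for COL4A2, -0.69 for COL18A1, -1.23 for COL6A2 and -1.04 for COL6A3, and with no change of sign -2.01 for COL1A1, -1.77 for COL1A2, -1.64 for COL3A1, -1.56 for COL6A1, -1.02 for COL5A3 and -0.91 for COL4A1. Leaving out each animal gave -0.30 to 0.24 for COL4A1, -0.15 to 0.20 for COL4A2, -0.057 to 0.45 for COL18A1, -0.78 to 0.33 for COL1A1, -0.67 to 0.27 for COL1A2, -0.73 to 0.17 for COL3A1, -0.42 to 0.34 for COL6A2, -0.65 to 0.18 for COL6A1 and -0.39 to 0.32 for COL6A3. The cause of these changes was not tested. COL14A1 ran from 0.67 to 1.03 over its settings, with limma adjusted p-values of 0.259 to 0.999, and was not tested with a mean of at least 5 FPKM. Replicate numbers were shared by the groups but did not pair animals: same-number deviations correlated at -0.156, -0.381, -0.034 and 0.093, and 1 of 8 animals correlated best with its own number. With the replicate block, 0 collagens passed, with a lowest limma adjusted p of 0.970. Depth limits the collagens below about 3 FPKM most, and 2 libraries have unknown depth. COL14A1 was near that level in controls, at 2.06 to 3.47 FPKM, and its lowest control, control 2, is of unknown depth.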
